A study of Homo sapiens with 8 samples.

Results

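The DNA replication and nucleotide synthesis genes are 55 human genes that encode the machinery which copies chromosomal DNA and supplies its building blocks. They were taken by name, from textbook membership of the replisome and of deoxynucleotide metabolism, with earlier results of these data known. The table of 61125 genes held 56 rows for them, because POLA2 is listed under a second identifier, and 55 rows, 1 for each gene, had enough reads to be tested among 14995 tested genes. The second POLA2 row held counts in 2 of 8 libraries and was not tested.

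U-937 is a human pro-monocytic cell line. The cells were treated for 72 hours with vehicle (PBS and DMSO), with 250 µM L-ascorbic acid (LAA), with 1 µM all-trans retinoic acid (ATRA), or with both, and polyadenylated RNA was sequenced from 2 libraries in each of the 4 groups. Nothing in the labels says that the libraries of a group were grown as separate cultures. The p-values are therefore relative to the spread between libraries, which may be technical. Total estimated counts per library ran from 18462552 to 24166770. Of 12 markers of monocytic and myeloid lines all were detected, with a summed level of 4550 to 4660 CPM, counts scaled to library size, in vehicle and 9570 to 10300 with ATRA, although MPO was near 0 at 0.158 to 0.839 CPM in every library. Of 15 markers of other cell types, 8 had no count in any library, among them CD3E, MS4A1, HBB and GATA1. The summed level of those 15 was 73.6 to 75.7 CPM in vehicle and 115 to 120 with ATRA, mostly PECAM1.

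Replication origins are first marked by the origin recognition complex (ORC), onto which CDC6 and CDT1 load the ring-shaped MCM2-7 helicase. When a cell enters S phase, CDC45 and the GINS complex join that ring to form the active helicase, and primase, polymerases, the sliding clamp PCNA and its loader RFC then build the new strands. Many of these genes are transcribed in step with the cell cycle under E2F factors, and ATRA is a classical inducer of differentiation in myeloid leukemia lines. In bulk RNA such as this, fewer cycling cells and less RNA per cell cannot be told apart.

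Upstream sequence was searched in both directions because the genes moved together and E2F sites are known in many of them. RefSeq promoter windows on GRCh38.p14, of 250 bases before to 50 bases after each start site, were found for 49 of the 55 genes. GINS4, MCM4, MCM5, POLD3, RPA2 and RPA3 had none in the table. One of the letters TTTCCCGC, TTTGGCGC, TTTCGCGC or TTTGCCGC, which are forms of the E2F site, was present on either strand in 24 of 49 genes (49.0%), against 3.99% of 27305 genes in the same table. The CCAAT box, counted the same way, was present in 29 of 49 genes (59.2%), against 39.7% of all. Those 27305 genes were not limited to the 14995 tested here, and the members were chosen from textbook lists. The shares thus compare unlike sets. The 6 stretches below lie directly upstream of the RefSeq start and are shown 5′ to 3′ on the gene's strand, with these letters or their reverse complements in capitals. MCM6, CDT1 and GINS2 are shown as genes that fell with ATRA and carry E2F letters, POLD2 as the gene with the deepest fall and no such letters, and ORC6 and RRM2 as genes that went the other way.
MCM6, chr2:135876444-135876615, minus strand: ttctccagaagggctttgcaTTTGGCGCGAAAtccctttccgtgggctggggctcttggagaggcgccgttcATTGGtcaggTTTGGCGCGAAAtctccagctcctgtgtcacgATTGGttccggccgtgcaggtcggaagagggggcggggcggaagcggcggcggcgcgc
CDT1, chr16:88803734-88803788, plus strand: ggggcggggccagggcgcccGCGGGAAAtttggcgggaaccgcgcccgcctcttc
GINS2, chr16:85688955-85689132, minus strand: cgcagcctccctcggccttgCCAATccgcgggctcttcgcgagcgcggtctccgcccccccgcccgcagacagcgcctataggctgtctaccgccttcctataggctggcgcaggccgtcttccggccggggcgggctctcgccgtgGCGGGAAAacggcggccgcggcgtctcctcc
POLD2, chr7:44123549-44123636, minus strand: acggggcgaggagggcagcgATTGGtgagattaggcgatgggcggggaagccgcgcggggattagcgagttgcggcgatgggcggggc
ORC6, chr16:46689535-46689658, plus strand: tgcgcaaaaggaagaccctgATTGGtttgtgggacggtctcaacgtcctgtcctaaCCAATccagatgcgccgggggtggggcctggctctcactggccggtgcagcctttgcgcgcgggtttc
RRM2, chr2:10122596-10122738, plus strand: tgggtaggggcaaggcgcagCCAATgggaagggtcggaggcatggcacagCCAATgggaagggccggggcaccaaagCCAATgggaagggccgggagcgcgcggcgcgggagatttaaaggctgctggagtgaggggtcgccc
In MCM6 the E2F letters occur at 2 places, and at each place TTTGGCGC on the gene's strand overlaps TTTCGCGC on the opposite strand. CDT1 and GINS2 each hold TTTCCCGC on the opposite strand, 35 and 31 bases before the start. In the stretches shown, which end at the start site, RRM2 holds 3 copies of CCAAT, ORC6 holds 2 and POLD2 holds 1. The median log2 fold change with ATRA alone was -0.53 over the 24 genes with E2F letters and -0.49 over the 25 without. At an edgeR adjusted p under 0.05, 21 of the 24 fell and 1, CLSPN, rose. Of the 25, 19 fell and 2 rose, where 21% of all genes tested fell and 21.9% rose. A match describes the letters only, and an absent match says only that they are not in this window.

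The first comparison asked what 72 hours of ATRA did to these genes. Their share of all counts was 0.743% and 0.741% in the vehicle libraries and 0.491% and 0.488% in the ATRA libraries. Of the 55 genes, 43 fell and 3 rose at an edgeR adjusted p under 0.05, which is 83.6% called. Over all genes tested 42.9% were called, 21.9% higher and 21% lower. The median log2 fold change was -0.50 for the 55 genes and 0.00 over all genes. Both ATRA libraries lay below both vehicle libraries for 47 of the 55 genes (85.5%), against 35.9% of all genes tested. The falls were moderate, from 17.4% to 60.8%, and only POLD2, CDT1 and RFC3 fell by more than 50%. Of the 43 genes that fell, 24 kept that call in all 17 alternative settings and 29 in all those that used counts. In the 3 fits on FPKM the number lower was 33, 31 and 32, where 15.9%, 15.1% and 8.31% of all genes were called lower.

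**Figure D1:**
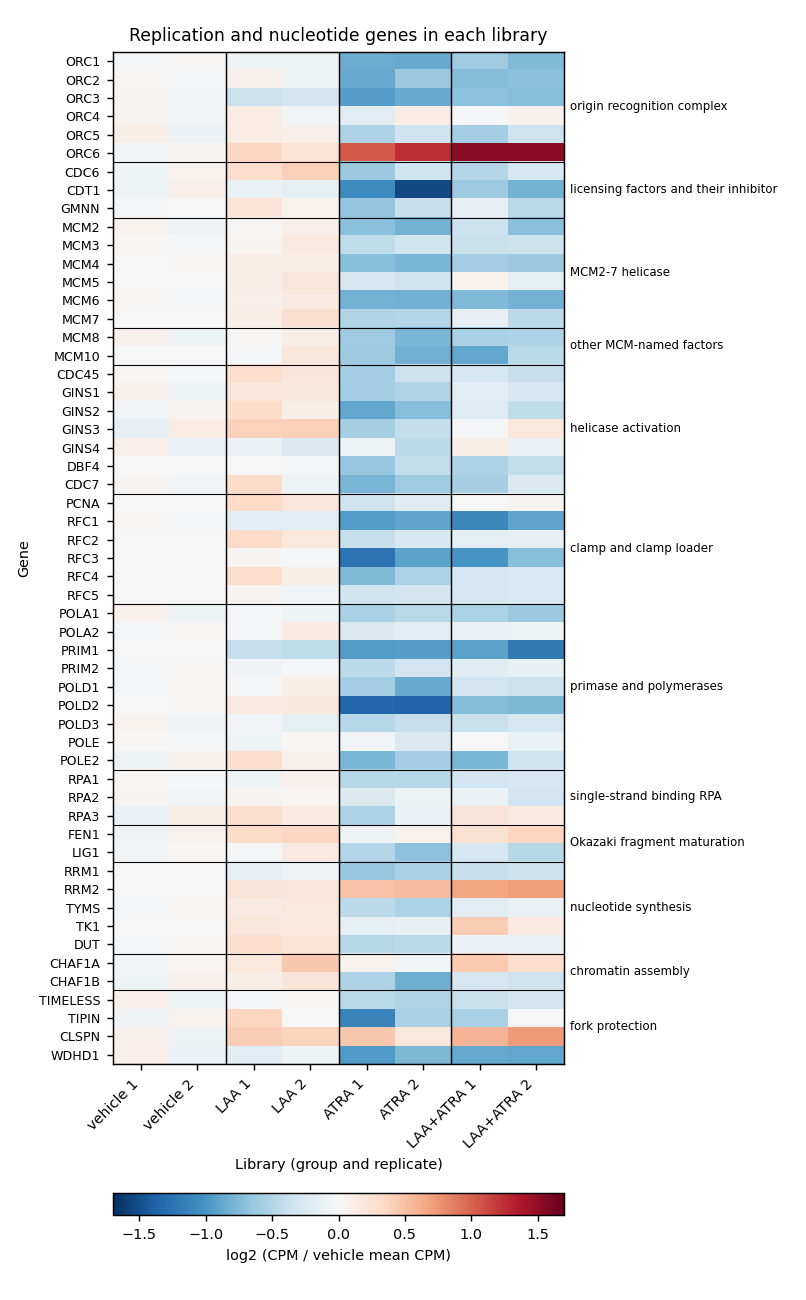
Each row is 1 gene and each column 1 library; colour gives log2 of the CPM over the gene's vehicle mean, with blue for lower and red for higher, and lines separate groups and roles. Both ATRA libraries are blue for most genes, while ORC6 and RRM2 are red in all libraries that received ATRA.

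ORC subunits, which bind the origin, did not move as a block. ORC1, ORC2, ORC3 and ORC5 fell with ATRA, by 0.85, 0.74, 0.89 and 0.43 on the log2 scale. ORC4 was not called at -0.02. ORC6 (ENSG00000091651.9) stood at 33.6 and 36.0 CPM in the vehicle libraries, 44.4 and 40.9 with LAA, 71.6 and 83.1 with ATRA, and 101 and 99.8 with LAA+ATRA. Every library with ATRA was above every library without it. ORC6 rose 2.22-fold with ATRA alone (log2 1.15 ± 0.11 SE, edgeR adjusted p 4.6e-06). It kept its direction and its call in all 17 alternative settings, with log2 values of 1.04 to 1.27.

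Licensing factors all fell. CDT1 (ENSG00000167513.9), which brings the MCM ring to ORC, stood at 202 and 227 CPM in vehicle, 197 and 191 with LAA, 102 and 73.6 with ATRA, and 140 and 123 with LAA+ATRA. The ATRA libraries were the lowest, and those with both compounds lay between them and the libraries without ATRA. CDT1 fell by 59.1% with ATRA alone (log2 -1.29 ± 0.14 SE, edgeR adjusted p 1.77e-05). CDC6, the ATPase that works with CDT1, fell by 0.47 on the log2 scale, and GMNN, whose product geminin inhibits CDT1, fell by 0.52. The CDC6 and GMNN calls were each lost in 3 of 17 alternatives.

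The 6 subunits of the MCM2-7 helicase, which work as 1 ring, all fell, with log2 changes from -0.81 to -0.32. MCM6 (ENSG00000076003.5) stood at 377 and 365 CPM in vehicle, 394 and 408 with LAA, 213 and 210 with ATRA, and 220 and 213 with LAA+ATRA. The 4 libraries with ATRA formed a tight low group and the 4 without it a high one. MCM6 fell by 43.0% with ATRA alone (log2 -0.81 ± 0.09 SE, edgeR adjusted p 1.94e-05). MCM5 moved least, from 202 and 200 CPM in vehicle to 165 and 157 with ATRA (log2 -0.32 ± 0.10, edgeR adjusted p 0.0238). That call was lost in 5 of 17 alternatives, among them those that left out vehicle 1, vehicle 2 or ATRA 2, where adjusted p rose as far as 0.124. MCM2, MCM3, MCM4 and MCM7 changed by -0.76, -0.39, -0.76 and -0.50. The MCM4 call was lost in the 3 limma fits on FPKM (adjusted p up to 0.123).

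Levels between genes can be compared per length, as FPKM, fragments scaled to gene length and library depth. In vehicle MCM7 was the highest of the ring's subunits with 230 and 246 FPKM, followed by MCM4 at 158 ± 11.3 FPKM (SD, n = 2) and MCM3 at 157 ± 4.22, which did not differ beyond their spread. MCM6 at 116 ± 9.19 and MCM2 at 102 ± 3.72 came next, and MCM5 was lowest with 79.5 and 80.2 FPKM in its 2 vehicle libraries. The subunits of 1 ring thus differed in transcript level. Their summed level was 862 and 839 FPKM in vehicle, 918 and 954 with LAA, 590 and 528 with ATRA, and 647 and 668 with LAA+ATRA. Sums in FPKM also carry differences in implied length between libraries. MCM4 read 119 and 65.8 FPKM in the 2 ATRA libraries, at 247 and 238 CPM. Across all 55 genes, vehicle means ran from 563 ± 3.01 FPKM for PCNA and 539 ± 21.3 for DUT down to 4.31 ± 0.99 for CLSPN.

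MCM8, which acts in recombination and not in the ring, and MCM10, which helps to activate the helicase, also fell. MCM8 went from 55.8 and 50.3 CPM in vehicle to 35.0 and 31.0 with ATRA (log2 -0.69 ± 0.11, edgeR adjusted p 0.000272), and MCM10 changed by -0.71. Of 7 genes for helicase activation, 6 fell. GINS2, a subunit of the GINS complex, stood at 47.5 and 50.6 CPM in vehicle, 60.8 and 52.7 with LAA, 26.7 and 29.6 with ATRA, and 42.0 and 36.3 with LAA+ATRA. The ATRA libraries were lowest, and no library with both compounds reached the lowest vehicle library. GINS2 changed by log2 -0.80 ± 0.12 with ATRA alone (edgeR adjusted p 0.00019). CDC45, GINS1 and GINS3 changed by -0.47, -0.54 and -0.47, and the kinase CDC7 and its activator DBF4 by -0.69 and -0.52. The CDC45 call was lost in 4 of 17 alternatives and the GINS3 call in 6. Both were lost in the 3 FPKM fits, and GINS3 also in DESeq2. GINS4 was not called at -0.26.

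**Figure D2:**
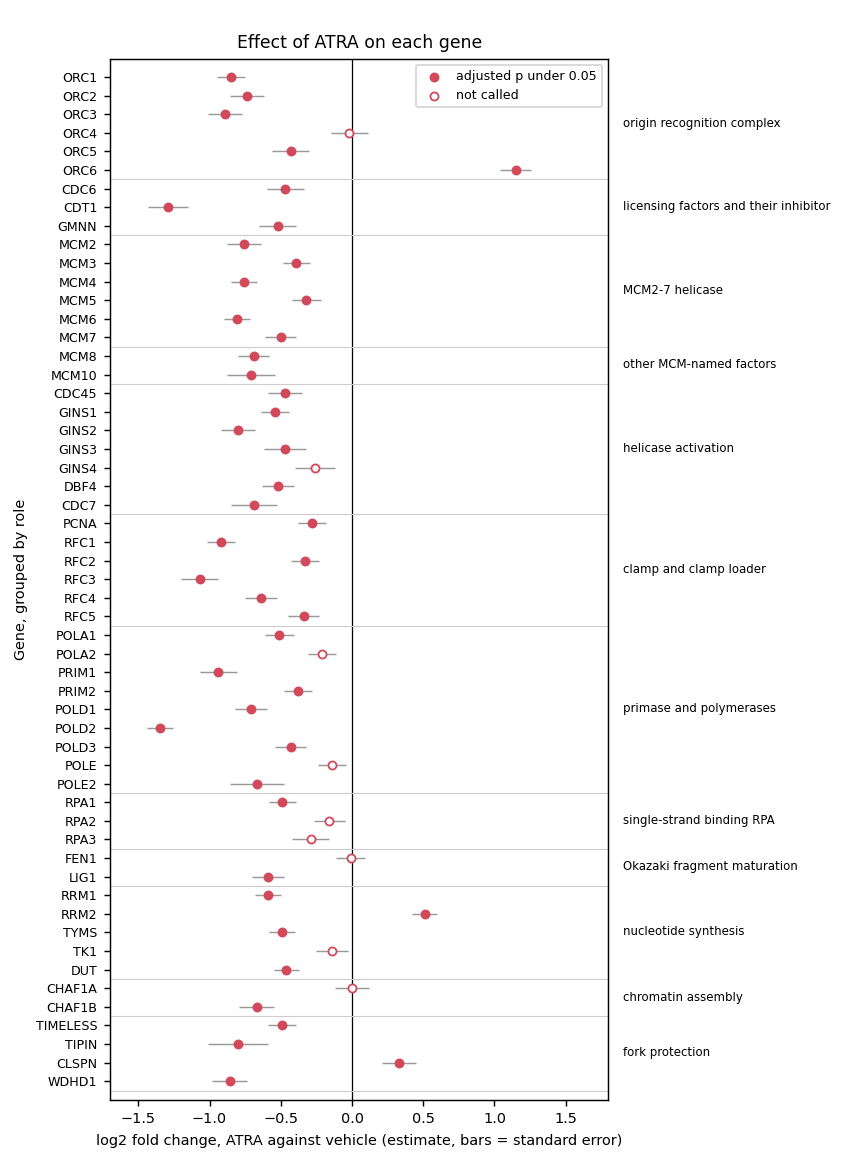
Points give the log2 fold change of each of the 55 genes with ATRA against vehicle and bars its standard error, grouped by role; filled points passed an edgeR adjusted p of 0.05 and open points did not. Most points lie left of 0, with ORC6 at 1.15, RRM2 at 0.51 and CLSPN at 0.33 on the right.

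The clamp and its loader fell in all 6 genes. RFC1, the large subunit of the loader, stood at 123 and 119 CPM in vehicle, 107 and 106 with LAA, 62.8 and 65.1 with ATRA, and 56.4 and 65.1 with LAA+ATRA. The libraries with and without ATRA did not overlap, and RFC1 changed by log2 -0.92 ± 0.10 with ATRA alone (edgeR adjusted p 1.8e-05). RFC4, a small subunit, went from 45.4 and 44.9 CPM to 26.8 and 31.2 (log2 -0.64 ± 0.11, edgeR adjusted p 0.000745). RFC3, which was picked out after its values were seen because it fell by 52.2%, went from 48.6 and 48.5 CPM to 20.4 and 25.8. PCNA, RFC2 and RFC5 changed by -0.28, -0.33 and -0.34. The PCNA call was lost in 10 of 17 alternatives (adjusted p up to 0.184), among them those without vehicle 1, vehicle 2, ATRA 1, LAA 1 or LAA 2. The RFC5 call was lost in 8 (up to 0.125), among them DESeq2 and those without vehicle 1, vehicle 2, ATRA 1 or ATRA 2, and the RFC2 call in 3, without vehicle 1, vehicle 2 or ATRA 1 (up to 0.0918).

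Of 9 primase and polymerase genes, 7 fell. POLD2 (ENSG00000106628.12), the small accessory subunit of polymerase delta, stood at 336 and 343 CPM in vehicle, 380 and 386 with LAA, 134 and 132 with ATRA, and 203 and 200 with LAA+ATRA. The 4 groups did not overlap one another. POLD2 fell by 60.8% with ATRA alone (log2 -1.35 ± 0.09 SE, edgeR adjusted p 2.72e-07), the largest change among the 55 genes. POLD1, the catalytic subunit, and POLD3 changed by -0.71 and -0.43. PRIM1, the catalytic primase subunit, went from 33.7 and 33.6 CPM to 17.5 and 17.6 (log2 -0.94 ± 0.13, edgeR adjusted p 8.38e-05). PRIM1 overlaps NACA on the same strand over 33 bases, and NACA held 101621 counts over the 8 libraries against 3722 for PRIM1. PRIM2, POLA1 and the polymerase epsilon subunit POLE2 changed by -0.38, -0.51 and -0.67. Calls were lost in 3 of 17 alternatives for POLD1, 4 for POLD3, 4 for PRIM2 and 5 for POLE2. POLA2 and POLE, the catalytic subunit of polymerase epsilon, were not called at -0.21 and -0.14.

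Among the 3 subunits of RPA, which coats single-stranded DNA, only RPA1 passed the test. It went from 192 and 185 CPM in vehicle to 134 in both ATRA libraries (log2 -0.49 ± 0.10, edgeR adjusted p 0.00121). RPA3 stood at 46.8 and 53.7 CPM in vehicle and 35.1 and 46.9 with ATRA, where the groups overlap, and RPA2 was at -0.16. The enzymes that finish Okazaki fragments differed from each other. LIG1, the ligase, went from 113 and 120 CPM to 83.0 and 72.4 (log2 -0.59 ± 0.11, edgeR adjusted p 0.00127), a call that was lost in 2 of 3 limma fits on FPKM (adjusted p at most 0.0594). FEN1, the flap nuclease, stood at 83.0 and 90.2 CPM in vehicle and 81.2 and 90.6 with ATRA (log2 -0.01 ± 0.10). FEN1 overlaps FADS2 on the same strand over 4265 bases, and FADS2 held more counts in all, 81375 against 15528.

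The nucleotide enzymes also split. RRM1 and RRM2 are the large and small subunits of ribonucleotide reductase, which makes deoxynucleotides. RRM1 went from 157 and 155 CPM in vehicle to 99.9 and 106 with ATRA (log2 -0.59 ± 0.09, edgeR adjusted p 0.000284). RRM2 (ENSG00000171848.16) stood at 289 and 291 CPM in vehicle, 338 and 333 with LAA, 408 and 420 with ATRA, and 462 and 475 with LAA+ATRA. The 4 groups did not overlap, and RRM2 was 1.43-fold higher with ATRA alone (log2 0.51 ± 0.09, edgeR adjusted p 0.000622). In FPKM, however, RRM2 read 152 and 150 in vehicle and 177 and 143 with ATRA, where the groups overlap. On log2(FPKM + 1) its difference was 0.08 with a limma adjusted p of 0.707. The length implied for RRM2 by the authors' counts and FPKM was larger with ATRA by 0.44 on the log2 scale, while it differed by 0.36 between the 2 ATRA libraries. In a count fit with length and GC offsets the RRM2 estimate was 0.61 and stayed called. The rise of RRM2 was thus called on counts and not on FPKM.

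DUT, which removes dUTP and supplies the precursor of thymidylate, went from 477 and 495 CPM to 346 and 358 with ATRA (log2 -0.46 ± 0.09, edgeR adjusted p 0.00138), and TYMS, the thymidylate synthase, changed by -0.49. TYMS shares 3255 bases with ENOSF1 on the opposite strand, and the library kit does not mark strand, so reads of the pair cannot be told apart there. TK1, the salvage kinase for thymidine, stood at 67.9 and 68.3 CPM in vehicle and 61.5 and 62.4 with ATRA and was not called (log2 -0.14 ± 0.11, edgeR adjusted p 0.345).

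The subunits of chromatin assembly factor 1, which loads histones behind the fork, differed too. CHAF1B went from 44.0 and 48.6 CPM to 32.1 and 26.1 (log2 -0.67 ± 0.12, edgeR adjusted p 0.000715), while CHAF1A stood at 65.7 and 69.4 CPM in vehicle and 70.2 and 65.2 with ATRA. Of 4 fork protection genes, TIMELESS, TIPIN and WDHD1 fell, by 0.49, 0.80 and 0.86 on the log2 scale. The TIPIN call was lost in 5 of 17 alternatives. WDHD1, which ties the helicase to polymerase alpha, went from 37.4 and 32.8 CPM to 18.0 and 20.6. CLSPN, the checkpoint mediator claspin, went the other way, from 30.0 and 26.8 CPM to 39.1 and 32.3 (log2 0.33 ± 0.12, edgeR adjusted p 0.0486). The CLSPN call was lost in 12 of 17 alternatives, where adjusted p reached 0.734, in DESeq2 and on leaving out vehicle 1, vehicle 2, ATRA 1, LAA 1 or LAA 2.

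**Figure D3:**
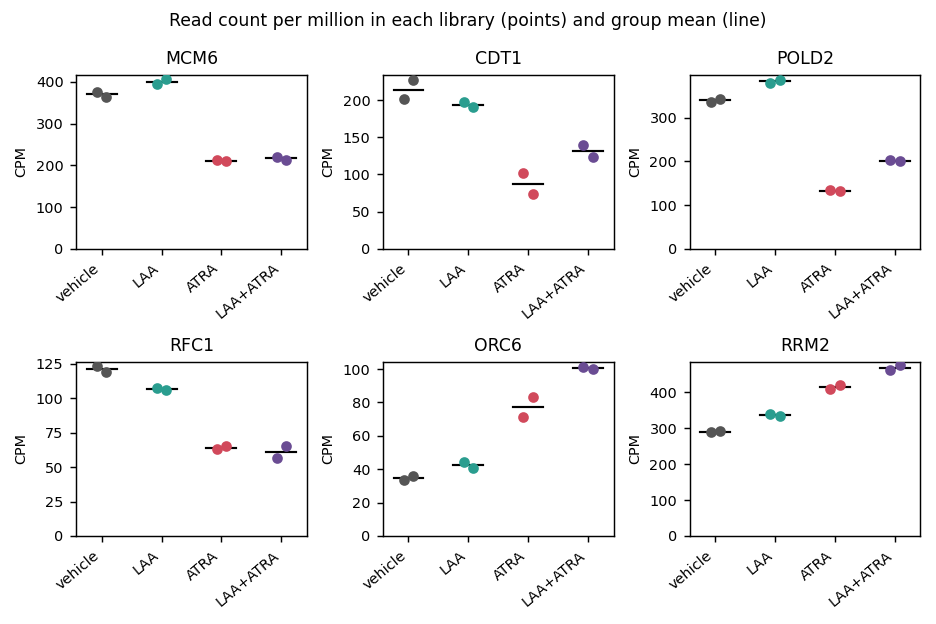
The 2 libraries of each group (points) and their mean (line) are shown in CPM, on axes from 0, for MCM6, CDT1, POLD2, RFC1, ORC6 and RRM2. MCM6 and RFC1 lie low in all 4 libraries with ATRA, POLD2 and CDT1 lie between the ATRA and vehicle libraries when both compounds were given, and ORC6 and RRM2 lie above vehicle.

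Other lists of related genes were read in the same comparison. They are read against the 21.9% of all genes called higher and 21% called lower. Of 31 other enzymes of nucleotide synthesis and salvage, 74.2% were called, and 21 fell and 2 rose with ATRA, with a median log2 fold change of -0.53. PAICS and PPAT, which act in the making of purines, changed by -1.56 and -1.60, and IMPDH2, the enzyme that commits IMP to guanine nucleotides, by -1.11. SAMHD1, which breaks deoxynucleotides down, stood at 5.58 and 5.63 CPM in vehicle and 53.3 and 47.0 with ATRA and so rose 8.93-fold (edgeR adjusted p 5.8e-09). TK2, the mitochondrial thymidine kinase, was the other gene that rose, by 0.83. Among 28 other replisome and origin factors 57.1% were called, 12 lower and 4 higher, with a median of -0.22. DSCC1, of an alternative clamp loader, changed by -1.06 and RNASEH2B by -0.83, while POLD4, the smallest subunit of polymerase delta, rose from 17.6 and 20.3 CPM to 51.9 and 56.1 (log2 1.51 ± 0.13), opposite to POLD1, POLD2 and POLD3. RNASEH2C rose by 0.95, opposite to RNASEH2B of the same nuclease.

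Regulators of S-phase entry were mixed, with 55.2% of 29 tested genes called, 11 lower and 5 higher. CDKN1A, the inhibitor p21, stood at 5.29 and 4.56 CPM in vehicle and 34.2 and 30.6 with ATRA, a rise of 6.56-fold (edgeR adjusted p 6.15e-08). CDK6 and CCND2, a kinase and a cyclin of the G1 phase, changed by -1.50 and -1.56. E2F1 stood at 37.4 and 35.1 CPM in vehicle and 34.0 and 28.2 with ATRA and was not called (log2 -0.22 ± 0.12, edgeR adjusted p 0.169), whereas E2F2 rose by 1.42. Of 25 genes of G2 and mitosis 40% were called, near the 42.9% of all genes, with 8 lower, 2 higher and a median of -0.22. MKI67, a general marker of cycling cells, was among the 2 that rose, from 216 and 239 CPM to 306 and 259 (log2 0.31 ± 0.11, edgeR adjusted p 0.0322).

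The second comparison asked what LAA did without ATRA. No gene of the 55 was called in edgeR, where 0.0267% of all genes were called, 0.02% higher and 0.00667% lower. At an unadjusted p under 0.05 there were 13 of 55, against 2833 of 14995 over all genes, and 11 of the 13 were positive. DESeq2 called 3 of the 54 genes to which it gave an adjusted p, all higher: PCNA at 0.27, FEN1 at 0.33 and DUT at 0.25. That is near the 4.7% of all genes it called higher. The limma fits on FPKM called none. A fit to the 4 libraries of this comparison alone called 11, with 9 higher, and ORC3 and PRIM1 lower, where 8.59% of all genes were called higher and 6.79% lower. Estimates ran from -0.41 to 0.40 with a median of 0.10, and 38 of the 55 were positive. Both LAA libraries lay above both vehicle libraries for 26 genes (47.3%) and below for 7, against 28.6% and 27.4% of all genes tested. FEN1 read 108 and 111 CPM with LAA against 83.0 and 90.2 in vehicle, and DUT 596 and 569 against 477 and 495. PRIM1 read 25.7 and 24.9 against 33.7 and 33.6. In each of these 3 genes the groups did not overlap.

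LAA was next compared on top of ATRA. POLD2 alone passed the test, higher with both compounds than with ATRA alone (1.52-fold, log2 0.60 ± 0.09, edgeR adjusted p 0.0194), and none was lower. Over all genes 1.01% were called, 0.493% higher and 0.52% lower. The POLD2 call was lost in 7 of 17 alternatives, among them those without vehicle 1, vehicle 2, LAA 1 or LAA 2, with an adjusted p of at most 0.149 and log2 values of 0.52 to 0.61. Of the 55 estimates 49 were positive, with a median of 0.20 against 0.00 over all genes. At an unadjusted p under 0.05 there were 20, all positive, against 2782 of 14995 over all genes in either direction. DESeq2 called 11 of 53, all higher, among them POLD2, DUT, CDT1, TYMS and TK1, where it called 4.09% of all genes higher and 4.13% lower. Both LAA+ATRA libraries lay above both ATRA libraries for 35 genes (63.6%) and below for none, against 21.2% and 22.9% of all genes.

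By role, all 5 nucleotide enzymes lay above ATRA alone in both libraries with both compounds, with a median of 0.34. DUT read 454 and 448 CPM with both compounds against 346 and 358 with ATRA, and TK1 read 92.0 and 74.8 against 61.5 and 62.4. RRM1 read 119 and 121 against 99.9 and 106. The edgeR adjusted p was 0.0756 for DUT, 0.0775 for TK1 and 0.234 for RRM1, so none of these passed. CHAF1A read 92.1 and 82.9 CPM against 70.2 and 65.2, and CHAF1B 37.7 and 36.4 against 32.1 and 26.1. RPA3 at 58.5 and 56.1 lay above both ATRA libraries as well. The MCM ring had a median of 0.18, close to that of the 55 genes, with subunits from 0.02 for MCM3 and 0.03 for MCM6 to 0.23 for MCM2 and 0.28 for MCM5, none of them called. The LAA estimates without ATRA and with it share no library, and over the 55 genes they had a Pearson r of 0.48 and a Spearman rho of 0.52, against 0.18 and 0.39 over all genes. The genes come from the same 8 libraries and are not independent. In 36 of 55 genes both estimates were positive, and in 20 both pairs of libraries lay above. The share over all genes was not computed for either count, so neither is read as particular to these genes.

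**Figure D4:**
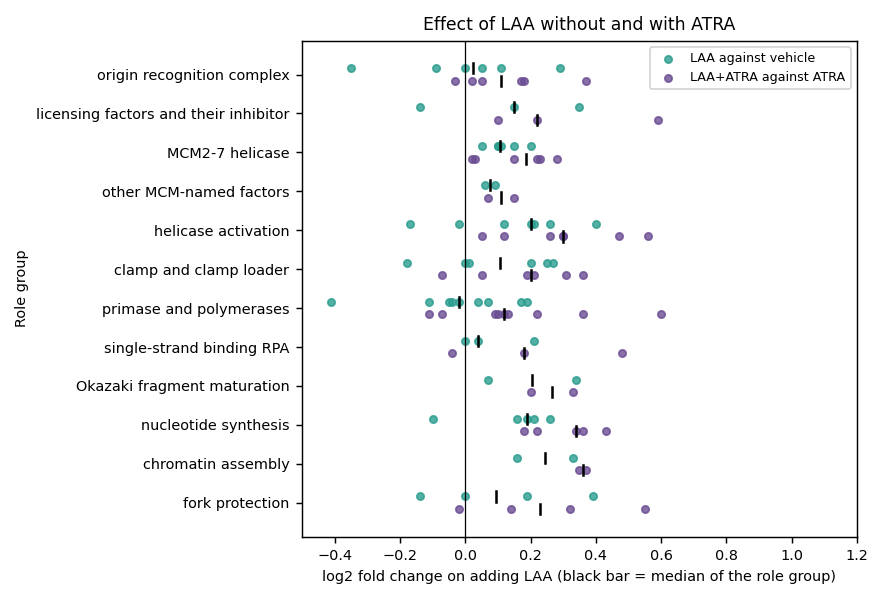
Each point is the log2 fold change of 1 gene on adding LAA, without ATRA (green) or with it (purple), by role, and black bars are the medians of the role groups. Most purple points lie right of 0, with POLD2 at 0.60 and CDT1 at 0.59 farthest.

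The ATRA comparison was then made in the presence of LAA, as LAA+ATRA against LAA. Of the 55 genes 36 fell and 2 rose, ORC6 and RRM2, where 36.4% of all genes were called, 18.4% higher and 18% lower. The median was -0.44. The ORC3 call was lost in 14 of 17 alternatives and the RRM1 call in 13. TIMELESS and TYMS lost their calls in 6, and no other call was lost in more than 6. The RRM2 call was lost in the 3 FPKM fits. All 36 lower genes had also fallen with ATRA alone, which is 83.7% of the 43 that did so and 100% of the 36. The other 7, GINS3, MCM5, PCNA, POLD3, PRIM2, RFC5 and TIPIN, were not called here, with estimates from -0.44 for TIPIN to -0.12 for PRIM2, and that does not show that they differ between the settings. The overlap of the 2 comparisons over all genes was not computed, so neither percentage is read as particular to these genes. Over the 55 genes the ATRA estimates without and with LAA, which share no library, had a Pearson r of 0.90 and a Spearman rho of 0.84, against 0.73 and 0.80 over all genes.

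The test of that difference itself, the interaction of LAA and ATRA, called none of the 55 genes in edgeR and 0.00667% of all genes. At an unadjusted p under 0.05 there were 4 of 55, against 747 of 14995 over all genes, and all 4 were positive: CDT1 at 0.73 ± 0.20, POLD2 at 0.43 ± 0.13, ORC3 at 0.53 and RRM1 at 0.32. DESeq2 called none. The edgeR adjusted p was 0.715 for CDT1 and 0.719 for POLD2. A different response to ATRA in the presence of LAA was therefore not shown for any of the 55 genes with 2 libraries a group.

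**Figure D5:**
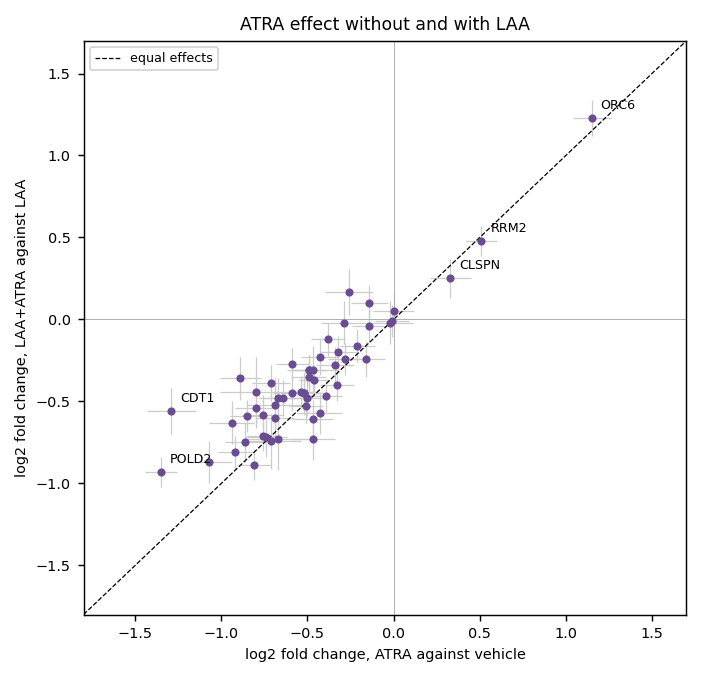
Each point is 1 of the 55 genes, with the log2 fold change of ATRA against vehicle on the x axis, that of LAA+ATRA against LAA on the y axis, standard errors as bars and equal effects as a dashed line. ORC6, RRM2 and CLSPN lie upper right, and CDT1 and POLD2 lie above the line at lower left.

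The combination against vehicle, which shares its libraries with the comparisons above, left 29 genes lower and 6 higher, with a median of -0.33, where 44.7% of all genes were called, 23.1% higher and 21.5% lower. PRIM1 at log2 -1.05, RFC1 at -0.99 and WDHD1 at -0.88 were the lowest. The 6 that were higher were ORC6 at 1.52 (2.88-fold), RRM2 at 0.69, CLSPN at 0.65, CHAF1A at 0.37, FEN1 at 0.32 and TK1 at 0.29. FEN1 stood at 104 and 112 CPM and CHAF1A at 92.1 and 82.9 with both compounds, above their 83.0 and 90.2 and their 65.7 and 69.4 in vehicle. TK1 was called by a small margin (edgeR adjusted p 0.0478). Its call was lost in 13 of 17 alternatives, among them those without vehicle 1, vehicle 2, LAA 1, LAA 2 or LAA+ATRA 1, and its estimate was -0.04 with length and GC offsets. The FEN1 call was lost in 7 (lowest log2 0.18), among them those without vehicle 1, vehicle 2 or LAA+ATRA 2, and the CHAF1A call in 6 (lowest 0.20), among them those without vehicle 1, vehicle 2 or LAA+ATRA 1. The RRM2 and CLSPN calls were lost in the 3 FPKM fits, and RRM2 was at 0.08 on log2(FPKM + 1). Of the genes lower here, CHAF1B lost its call in 11 of 17 alternatives and CDC45 and GINS2 in 9. POLD3 lost its call in 8, and POLE2 and RPA1 in 7. POLD1 changed from -0.35 to 0.26 on log2(FPKM + 1), and LIG1 from -0.38 to 0.04. Without vehicle 1 or without vehicle 2 the median was -0.31, and fewer of the 55 genes and fewer of all genes were called in either direction.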

How the data were processed

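RNA from 8 U-937 libraries was sequenced after poly-A selection with a NEBNext Ultra II kit, per the labels' protocols, a kit that does not mark strand. Estimated counts per gene were deposited by the authors; Salmon 1.8.0, DESeq2 1.36.0 and GRCh38 are named, without their roles, per the submitters' processing notes. For the annotation release and the index, nothing is given in the sources used here. The authors also deposited FPKM, whose implied gene lengths differ between libraries.

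Counts were rounded, which changed 16.5% of values, filtered with filterByExpr, scaled by TMM and tested in edgeR 4.0.16 (R 4.3.3) by the quasi-likelihood test with 4 group means, with Benjamini-Hochberg adjustment over 14995 genes and a threshold of 0.05. CPM are TMM-scaled. The script was tested on simulated data. Alternatives were DESeq2 1.42.0, RLE scaling, no filter, a replicate block, only the libraries compared, limma 3.58.1 on log2(FPKM + 1) or log2(FPKM + 0.1) with a group mean of at least 1 FPKM or no filter, length and GC offsets (values for 98.2% of genes), and each library left out.

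The members and gene lists were chosen with earlier results of these data known. Values per library are given for the genes with the smallest adjusted p of each role with ATRA and with LAA added to ATRA, those called in the minority direction, and the 3 largest changes per comparison; of each other list, up to 4 called genes, and E2F1, CDKN1A, MKI67 and SAMHD1. Gene overlaps were read from GENCODE on GRCh38, and upstream sequence from RefSeq on GRCh38.p14.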

Additional observations from a re-analysis of the deposited data

How the results depend on the processing

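Depth was alike in the 8 libraries, and 2 libraries a group set the precision. Over all 55 genes and the 4 comparisons with calls among them, the called changes were recomputed under 17 alternatives, and of 2040 values 1731 kept direction and call, 296 kept direction but lost the call and 13 changed direction. Those 13 were, in each of the 3 FPKM fits, LIG1 (0.04) and POLD1 (0.26) in LAA+ATRA against vehicle and POLD1 (0.06) and ORC3 (0.07) in LAA+ATRA against LAA, and, with length and GC offsets, TK1 in LAA+ATRA against vehicle (-0.04). The FPKM fits also gave fewer calls. Over all genes, in the order given next, they called 15.9%, 15.1% and 8.31% lower with ATRA, instead of 21%. They called 17.9%, 16.8% and 8.98% higher with ATRA, instead of 21.9%. In LAA+ATRA against vehicle they called 17.8%, 17% and 8.96% of all genes lower, instead of 21.5%. There they called 19.5%, 18.1% and 9.54% higher, instead of 23.1%. On log2(FPKM + 1), log2(FPKM + 0.1) and log2(FPKM + 1) without a filter, genes lower with ATRA numbered 33, 31 and 32 instead of 43, genes higher with ATRA 1, 1 and 1 instead of 3, genes higher with both compounds against vehicle 3, 2 and 2 instead of 6, and genes lower there 19, 18 and 17 instead of 29. Genes lower in LAA+ATRA against LAA numbered 23 on log2(FPKM + 0.1) and 20 without a filter instead of 36. Over all genes those 2 fits called 12.5% and 6.8% lower, instead of 18%. In LAA+ATRA against ATRA, the 1 higher gene became 11 in DESeq2, 7 without a count filter and 2 with length and GC offsets. Over all genes those settings called 4.09%, 1.82% and 0.727% higher, instead of 0.493%. The count was 0 in the fit to the compared libraries and on log2(FPKM + 1) and log2(FPKM + 0.1). In LAA against vehicle the higher genes became 3 in DESeq2 and 9 in the fit to the compared libraries, which also gave 2 lower. Over all genes those settings called 4.7% and 8.59% higher. The interaction gave 1 higher gene without a count filter, where 0.286% of all genes were called higher. The cause of these shifts was not tested.

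With 1 library left out at a time, the group's remaining library was taken to vary as much as the libraries of other groups. Genes lower with ATRA then numbered 34 to 43 and higher 2 to 3. In LAA+ATRA against vehicle the higher genes numbered 3 to 6 and the lower 16 to 33, with 16 without vehicle 1. In LAA+ATRA against ATRA the higher genes numbered 0 to 2, with 0 without vehicle 1, vehicle 2, LAA 1 or LAA 2 and 2 without ATRA 1, ATRA 2 or LAA+ATRA 2. In LAA+ATRA against LAA the lower genes numbered 24 to 37.

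The replicate numbers are given no meaning in the labels, and deviations of same-numbered libraries correlated at -0.0727 to 0.0771 between groups. Such values show that no large shift was common to them. They cannot tell whether same-numbered libraries shared a culture or a day. With the replicate number as a block, 2 genes were higher and 42 lower with ATRA, where 20.9% and 20.1% of all genes were. Both compounds against vehicle gave 5 higher and 27 lower, where 22.3% and 20.9% of all genes were called. Both compounds gave 1 higher and 0 lower against ATRA, where 0.107% and 0.0934% of all genes were called. Against LAA they gave 2 higher and 34 lower, where 17.4% and 17% of all genes were called. LAA against vehicle and the interaction gave 0.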

Other observations

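ORC4, which was picked out after its values were seen, differed between the 2 units the authors deposited. In counts it stood at 31.8 and 29.8 CPM in vehicle, 33.7 and 29.9 with LAA, 27.0 and 33.6 with ATRA, and 30.5 and 32.5 with LAA+ATRA, with overlapping groups. In FPKM it stood at 24.2 and 23.1 in vehicle, 17.6 and 14.9 with LAA, 12.9 and 13.2 with ATRA, and 12.8 and 9.56 with LAA+ATRA. The 2 vehicle libraries were the highest in FPKM, and on log2(FPKM + 1) the difference with ATRA was -0.81 with a limma adjusted p of 0.01. The length implied by the 2 units for ORC4 was larger with ATRA by 0.83 on the log2 scale, while replicates differed by 0.03 in vehicle and 0.29 with ATRA. A change in which transcripts of ORC4 were read was not tested.

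Subunits of the same enzyme did not always move together. With ATRA, ribonucleotide reductase had RRM1 lower and RRM2 higher in counts, polymerase delta had POLD1, POLD2 and POLD3 lower and POLD4 higher, and ORC had 4 subunits lower and ORC6 higher. POLE4, the small histone-fold subunit of polymerase epsilon, was the only gene of the other lists called when LAA was added to ATRA. It read 77.6 and 58.8 CPM against 40.6 and 46.7 (log2 0.64 ± 0.13, edgeR adjusted p 0.0466). Over all genes 1.01% were called in that comparison, 0.493% higher. The POLE4 call was not run under the alternatives.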
